A study of Mus musculus with 6 samples.

Results

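The 10 genes described here are 7 apolipoprotein genes (Apoa1, Apoa2, Apoa4, Apob, Apoc2, Apoc3 and Apom), the lipid transfer gene Mttp, and A1cf and Apobec1, whose products edit the Apob transcript. They were taken by symbol, and all 10 were found among the 24062 gene symbols of the deposited tables. They were picked with the levels of these same libraries in view, so their levels and the differences between genotypes are a description and carry no test. PolyA-selected RNA of C57BL/6 mouse heads, taken at embryonic day 8.5, was sequenced. The mutant heads carried tm1a, a gene-trap allele of Prdm15, on both chromosomes (Prdm15 tm1a-/-), the heterozygous heads on 1 (Prdm15 tm1a+/-) and the wild-type heads on neither (Prdm15 tm1a+/+). Each genotype had 2 libraries, the tissue protocol speaks of 2 heads per genotype, and no litter, sex or dissection day is given, so that the spread is that between these libraries.

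Lipoproteins are particles that carry triglyceride and cholesterol through body fluids. Apob is the large structural protein of very low density lipoproteins and chylomicrons, and the microsomal transfer protein encoded by Mttp loads lipid onto it in the endoplasmic reticulum. The small exchangeable apolipoproteins then coat the particle and steer lipases and receptors. In the mouse embryo before the liver forms, the visceral endoderm of the yolk sac makes and secretes such particles, and loss of Apob or Mttp stops that lipid supply and is lethal.

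Reads assigned to genes numbered 29412227 to 40439234 per library, and 3 reads equal 0.0742 to 0.102 CPM, the unit of reads scaled to library size. For mutant replicate 1 and wild-type replicate 2, sample title and attached count file disagree, and counts are given here by the title in the file name, which matches the deposited RPKM columns (0 of 24062 genes differ in zero status, against 1646 as attached). Every difference from wild type given here rests on that choice: as attached, 0 genes pass in any comparison, and Apob stands at -0.31 log2 units in mutant against wild type in place of 8.62. Left out in turn, these libraries change less, with Apob at 8.46 without mutant replicate 1 and 9.05 without wild-type replicate 2. RPKM is the read count scaled to gene length and library size, and it alone is used here to compare genes with each other. The targeted gene, Prdm15, stood at 26.6 and 32.0 CPM in mutant, 28.3 and 31.8 in heterozygous and 35.2 and 32.6 in wild-type libraries. In edgeR's quasi-likelihood test the mutant to wild-type difference was -0.21 on the log2 scale (SE 0.12, adjusted p = 0.221), so counts over the whole gene do not check the labels. The 8 head neural plate markers summed to 149 and 113 CPM in mutant, 287 and 333 in heterozygous and 457 and 356 in wild-type libraries. They were present in every library, and 7 of the 8 fell in mutant against wild type, where 13.6% of all genes tested did.

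Apob was abundant in mutant and heterozygous heads and nearly missing from wild-type heads. It stood at 86.4 and 69.9 RPKM in mutant, 44.6 and 32.4 in heterozygous and 0.147 and 0.258 in wild-type libraries. In reads these are 45444 and 28549 in mutant, 19234 and 13449 in heterozygous and 84 and 126 in wild-type libraries, so that even the lowest value rests on many reads. The 3 genotypes did not overlap, and mutant stood above heterozygous and heterozygous above wild type. On the log2 scale mutant stood 8.62 (SE 0.34) and heterozygous 7.59 (SE 0.33) above wild type, and mutant 1.03 (SE 0.23) above heterozygous libraries. These comparisons share their libraries and are not independent, here and for each gene that follows.

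Mttp, the lipid loader of Apob, followed the same order but had a higher wild-type level. It was at 42.8 and 39.8 RPKM in mutant, 27.1 and 18.7 in heterozygous and 1.52 and 1.85 in wild-type libraries. Mutant stood 4.63 (SE 0.21) and heterozygous 3.77 (SE 0.21) log2 units above wild type, with 0.86 (SE 0.18) between mutant and heterozygous libraries. Per length, Apob was 2.02 and 1.76 times Mttp in mutant and 1.65 and 1.73 times in heterozygous libraries, but 0.0966 and 0.139 times Mttp in wild-type libraries. In wild-type heads Mttp had 267 and 278 reads and was the most abundant of the 10 genes per length in both libraries.

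Apoa1, the main protein of high density lipoproteins and the activator of the cholesterol-esterifying enzyme Lcat, was the most abundant member per length in both mutant and both heterozygous libraries. Its level was 764 and 621 RPKM in mutant, 402 and 254 in heterozygous and 0.246 and 0.951 in wild-type libraries. Relative to wild type it was 10.24 (SE 0.49) log2 units higher in mutant and 9.15 (SE 0.48) higher in heterozygous libraries, and 1.09 (SE 0.29) separated mutant from heterozygous. Only 10 and 33 reads stood behind the wild-type values, and without wild-type replicate 1 or replicate 2 the mutant value was 9.52 or 11.43 and the heterozygous value 8.43 or 10.36. Per length Apoa1 was 8.85 and 8.89 times Apob in mutant, 8.998 and 7.85 times in heterozygous and 1.68 and 3.69 times in wild-type libraries.

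Apoa4, made in quantity by intestine and yolk sac and a coat protein of chylomicrons, was read at 110 and 88.4 RPKM in mutant, 45.9 and 39.0 in heterozygous and 0 and 0.0684 in wild-type libraries. Its wild-type value rests on 0 and 4 reads. Fitted differences were 11.53 (SE 0.39) for mutant and 10.30 (SE 0.40) for heterozygous over wild type and 1.23 (SE 0.19) for mutant over heterozygous libraries, all log2. Without wild-type replicate 1 the mutant value was 10.48 and the heterozygous value 9.24, and without replicate 2 wild type was at 0 and none was computed. The genotypes did not overlap.

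Apoa2, the second protein of high density lipoproteins, was the exception among the apolipoproteins. It stood at 24.3 and 14.2 RPKM in mutant, 18.5 and 18.6 in heterozygous and 1.16 and 1.04 in wild-type libraries. Mutant and heterozygous libraries overlapped, with the heterozygous pair lying between the mutant libraries. Both stood well above wild type, mutant by 4.13 (SE 0.32) and heterozygous by 4.07 (SE 0.32) log2 units. Between mutant and heterozygous libraries the log2 difference was 0.065 (SE 0.26), and it was -0.38 without mutant replicate 1 and 0.39 without mutant replicate 2. Apoa1 was 31.4 and 43.6 times Apoa2 per length in mutant, 21.8 and 13.6 times in heterozygous and 0.211 and 0.916 times in wild-type libraries.

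Apoc2 and Apoc3 act on the same enzyme, since Apoc2 is the cofactor that lipoprotein lipase needs and Apoc3 slows it. Apoc2 stood at 585 and 527 RPKM in mutant, 221 and 160 in heterozygous and 0.0334 and 0.823 in wild-type libraries. Of the 9 fitted members it had the largest log2 difference between mutant and heterozygous libraries, 1.55 (SE 0.28). Over wild type it was 10.44 (SE 0.49) log2 units higher in mutant and 8.89 (SE 0.49) in heterozygous libraries. The wild-type libraries held 1 and 21 reads, so the wild-type folds depend on which is used: without wild-type replicate 1 the mutant value was 9.41 and the heterozygous 7.85, and without replicate 2 they were 13.81 and 12.28.

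Apoc3 was far less abundant, with 8.17 and 5.45 RPKM in mutant, 2.86 and 1.91 in heterozygous and 0 in both wild-type libraries. Set against 3 reads over the wild-type group, it was at least 108.2-fold higher in mutant and at least 37.9-fold higher in heterozygous libraries. Its mutant against heterozygous log2 fold change was 1.52 (SE 0.36), close to that of Apoc2. The lipase cofactor exceeded the lipase inhibitor per length by 71.6 and 96.6 times in mutant and by 77.3 and 83.7 times in heterozygous libraries.

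Apom, a lipocalin of high density lipoproteins that carries the signalling lipid sphingosine-1-phosphate, was at 199.8 and 177 RPKM in mutant, 107 and 68.1 in heterozygous and 0.577 and 0.956 in wild-type libraries. The genotypes again kept apart, mutant by 7.96 (SE 0.34) and heterozygous by 6.85 (SE 0.34) log2 units over wild type and mutant by 1.11 (SE 0.22) over heterozygous. Apom lies close to Bag6 on chromosome 17 (Apom at 35128997 to 35132050, minus strand, GRCm38). Bag6, whose product guards protein quality in the cytosol, differed by 0.13 log2 units (SE 0.06, adjusted p = 0.160) between mutant and wild-type libraries in edgeR's quasi-likelihood test.

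**Figure D1:**
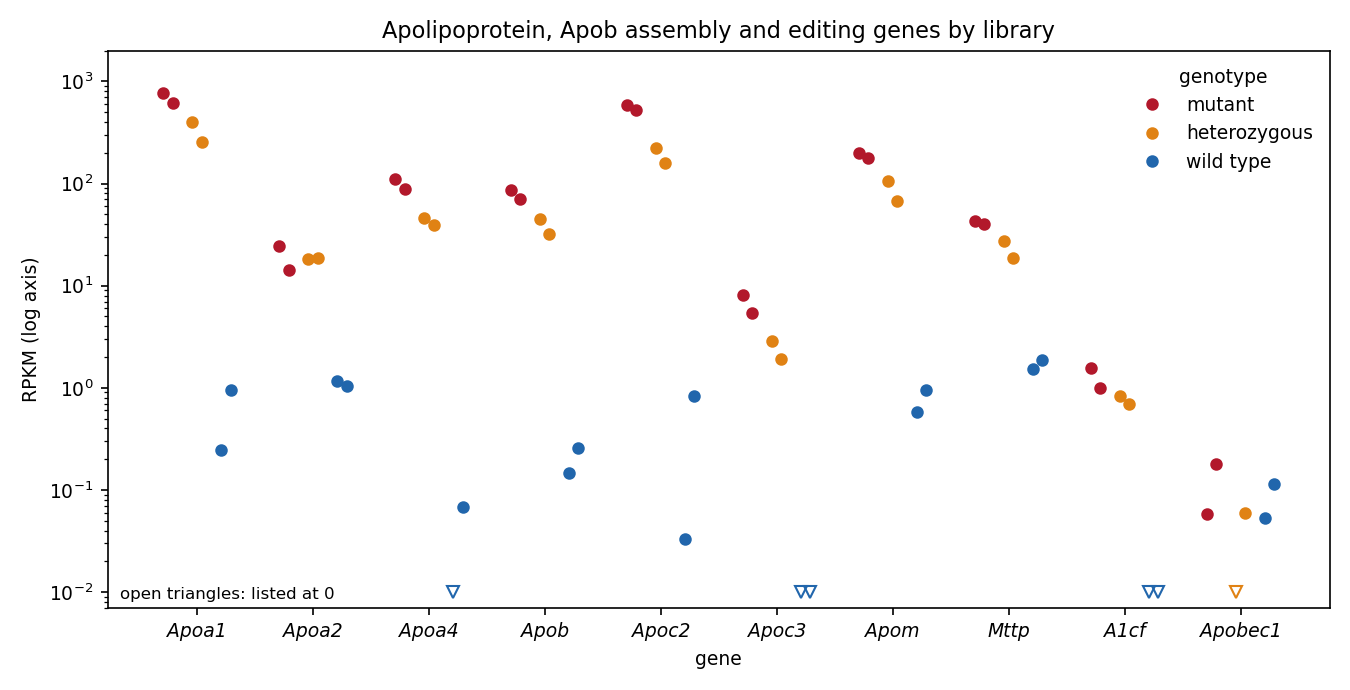
RPKM of each of the 10 genes in each library, on a log axis. Points are single libraries, replicate 1 left of replicate 2, in mutant, heterozygous and wild-type order, and open triangles mark a value listed at 0. In 8 of the 10 genes the genotypes stand apart in the order mutant, heterozygous, wild type; in Apoa2 mutant (24.3 and 14.2) and heterozygous (18.5 and 18.6) points overlap, and Apobec1 stays at or under 0.180 throughout.

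The editing genes differed from each other. Apobec1 is the cytidine deaminase that changes a glutamine codon of the Apob transcript into a stop codon, which shortens the protein to the form called ApoB48. A1cf was found as an RNA-binding cofactor of this reaction in the test tube. The genome holds the site in an exon that is the 26th of 29 in transcript Apob-202 (chromosome 12, 8008046 to 8008075, plus strand, GRCm38, GENCODE M21). It is shown because the measured genes are its substrate and its editors. Capitals mark the codon that is edited and the first 7 bases of the downstream mooring sequence that the editing complex binds. The codon is CAA, and the edited transcript would read TAA there in DNA letters, while the genome stays unchanged. In Apob-202, 1 match in frame was found, at codon 2179.
Apob editing site: acgcgataCAAttTGATCAGtatattaaag

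A1cf stood at 1.55 and 0.996 RPKM in mutant, 0.835 and 0.700 in heterozygous and 0 in both wild-type libraries. That is 224 and 112 reads in mutant, 99 and 80 in heterozygous and 0 and 0 in wild-type libraries. Against 3 reads over the wild-type group it was at least 122.8-fold higher in mutant and at least 73.7-fold higher in heterozygous libraries. Mutant and heterozygous libraries did not overlap, at a log2 fold change of 0.74 (SE 0.31), which was 0.38 without mutant replicate 1. Relative to its target, A1cf stood at 0.0179 and 0.0143 of the Apob level per length in mutant and 0.0187 and 0.0216 in heterozygous libraries.

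Apobec1 was near the limit of detection in every library. It had 5 and 12 reads in mutant, 0 and 4 in heterozygous and 5 and 9 in wild-type libraries, or at most 0.180 RPKM. In reads pooled over a group the mutant to wild-type ratio was 1.33, with an exact 95% counting interval of 0.618 to 2.92, the heterozygous to wild-type ratio was 0.353 (0.0846 to 1.12) and the mutant to heterozygous ratio was 3.77 (1.23 to 15.4). These intervals cover counting error only. Apobec1 alone of the 10 did not pass the filter on low counts and was not fitted. A total of 73993 Apob reads in mutant libraries stood beside 17 Apobec1 reads, and gene counts do not show whether the Apob site was edited.

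Of the 10 genes 9 passed the filter on low counts, and all 9 lay among the genes that passed edgeR's quasi-likelihood test as higher in mutant against wild type, where 17.1% of the 15187 genes tested did. The same 9 passed as higher in heterozygous against wild type, where 6.03% of all genes were higher and 0.533% lower. Ranges over the libraries did not overlap for any of these 9 in either comparison, nor for 34.9% of all genes in mutant and 28.7% in heterozygous against wild type, counting genes that were higher. In mutant against heterozygous libraries 0 of the 9 passed edgeR's quasi-likelihood test, with 7 at an unadjusted p under 0.05, while DESeq2 passed 4 and the likelihood ratio test 5; of all genes 0.435% passed the quasi-likelihood test, 0.0724% as higher. There 8 of the 9 were higher without overlap, as were 27.6% of all genes. The members were chosen on these values, so nothing is read from any of these counts.

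The level of the members moved with that of other visceral endoderm genes. The 13 markers of that tissue found hold no member and summed to 3549 and 2979 CPM in mutant, 2185 and 1635 in heterozygous and 149 and 142 in wild-type libraries. The 10 members summed to 2821 and 2423 CPM in mutant, 1450.0 and 1035 in heterozygous and 10.1 and 14.8 in wild-type libraries. In the test 13 of 13 markers were higher in mutant and 13 of 13 in heterozygous against wild-type libraries, where 17.1% and 6.03% of all genes tested were. Their median was 8.09 and 7.11 log2 units, beside -0.02 and -0.01 over all genes tested. The marker list was chosen with earlier results of these data known, so these counts and medians are a description. Dab2, an endocytic adaptor of many tissues, made up 19.4% and 19.7% of the sums in mutant and 24.6% and 27.5% in heterozygous libraries, but 91.8% and 89.0% in wild-type libraries. In bulk RNA, fewer cells of a type and less RNA per cell cannot be told apart, and the part of yolk sac tissue in the members' levels was not tested.

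Of the other tissues that make apolipoproteins, liver was looked for, and its main product Alb was at or near 0, with 3 and 0 reads in mutant, 0 and 2 in heterozygous and 0 and 0 in wild-type libraries. The 6 liver bud markers together summed to 31.0 and 26.5 CPM in mutant, 29.7 and 32.1 in heterozygous and 18.4 and 21.2 in wild-type libraries. Of the 3 that could be tested 2 rose in mutant and 1 in heterozygous against wild-type libraries in edgeR's quasi-likelihood test. Over all genes tested, 17.1% rose and 13.6% fell in mutant, and 6.03% rose and 0.533% fell in heterozygous against wild type. Serpina1a, with 58 and 24 reads in mutant and 1 and 3 in wild-type libraries, rose by 4.39 log2 units (SE 0.67, adjusted p = 0.00738) in mutant. Hhex rose by 0.60 (SE 0.12, adjusted p = 0.0168) in mutant and 0.88 (SE 0.12, adjusted p = 0.0160) in heterozygous libraries. Prox1 passed in neither comparison. Foregut endoderm markers summed to 134 and 148 CPM in mutant, 174 and 158 in heterozygous and 180 and 198 in wild-type libraries, and of 6 tested 2 rose and 2 fell in mutant against wild type, with a median of 0.14 log2 units in mutant and -0.02 in heterozygous against wild type. Parietal endoderm markers, genes of another yolk sac layer with basement membrane genes among them, summed to 1473 and 1499 CPM in mutant, 1277 and 1252 in heterozygous and 922 and 1099 in wild-type libraries. Of 8, 4 were higher in mutant against wild type, where 17.1% of all genes tested were. Blood markers did not follow the members: they summed to 29.9 and 12.2 CPM in mutant, 5.79 and 227 in heterozygous and 147 and 219 in wild-type libraries.

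Relative to the reads of the visceral endoderm list, several members stood in different proportions in mutant and heterozygous libraries. Those reads include Dab2, at 19.4% and 19.7% of them in mutant and 24.6% and 27.5% in heterozygous libraries. This lowers the heterozygous values more than the mutant ones, and proportions without Dab2 were not computed. Per 1000 reads of the marker list Apoc2 had 116 and 128 reads in mutant and 73.1 and 71.8 in heterozygous libraries. Apoc3 had 1.41 and 1.15 in mutant and 0.821 and 0.744 in heterozygous libraries. Apoa2 ran the other way, with 3.46 and 2.49 in mutant and 4.37 and 6.00 in heterozygous libraries. Mttp overlapped between them, at 49.9 and 57.0 in mutant and 52.6 and 49.3 in heterozygous libraries, and so did A1cf, at 1.62 and 1.28 in mutant and 1.45 and 1.65 in heterozygous libraries. Apob (328 and 326 in mutant, 282 and 278 in heterozygous libraries), Apoa1, Apoa4 and Apom were all somewhat higher per marker read in both mutant libraries.

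**Figure D2:**
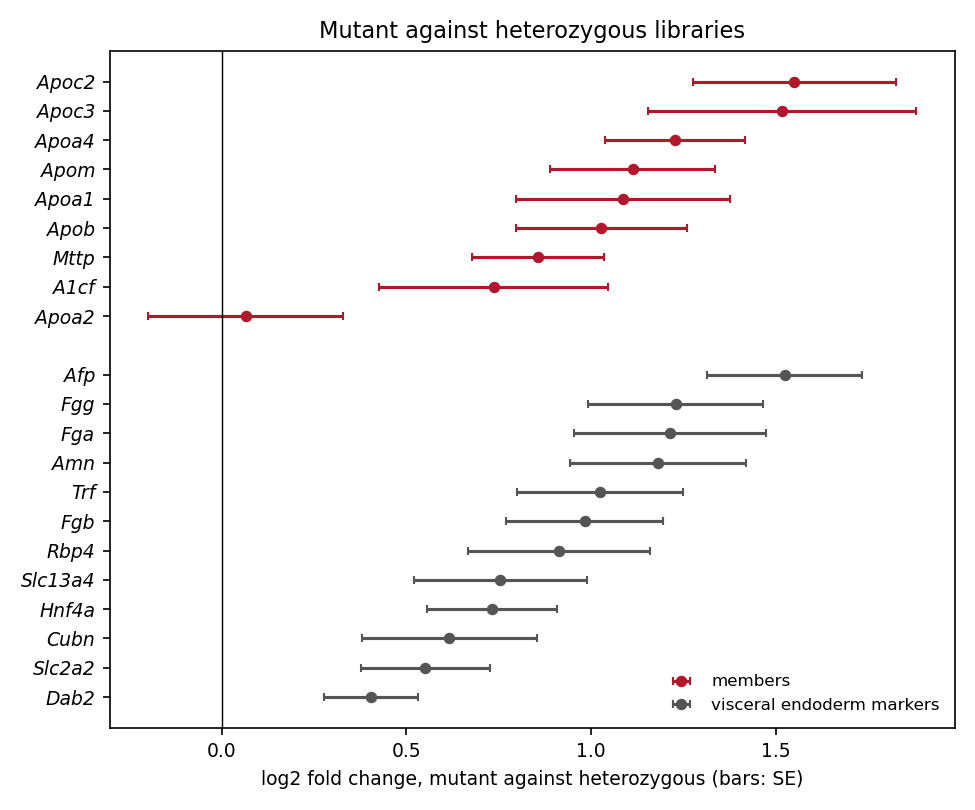
Log2 fold change of mutant against heterozygous libraries for the 9 fitted members (top) and 12 visceral endoderm markers (below), with bars for the SE of each. The members span 0.07 (Apoa2) to 1.55 (Apoc2), and the 13 markers of the full list span 0.40 to 1.53.

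Replicates of a genotype also differed from each other. In mutant libraries 9 of the 10 genes were higher in replicate 1, and in heterozygous libraries 8 of the 10 were, the same replicates in which the visceral endoderm sums were higher. In wild-type libraries 7 of the 10 were higher in replicate 2, 1 was lower and 2 were at 0 in both. The visceral endoderm sum was 149 CPM in wild-type replicate 1 and 142 in replicate 2. Dab2 made up 91.8% and 89.0% of those sums, so the sums do not show the order of the other markers. Taken singly, Afp, Ttr, Trf, Rbp4, Amn, Slc2a2, Fga, Cubn and Hnf4a were higher in CPM in wild-type replicate 2. Fgb, Fgg and Slc13a4 were lower. Several of these rest on few reads, such as 1 and 2 for Slc2a2.

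Among genes with a pattern over the 6 libraries like that of Apob (Pearson's r of log2(CPM + 0.5), over 13207 genes), the retinol carrier gene Rbp4 had r = 0.9994 and the scaffold gene Pdzk1, whose product holds the lipoprotein receptor Scarb1 at the membrane, r = 0.9993. Those most like Mttp were Soat2, which esterifies cholesterol for secretion, at 0.9998, the vitamin C transporter gene Slc23a1 at 0.9997 and the hedgehog ligand gene Ihh at 0.9996. The 6 points fall into wild-type and other libraries, and 91 genes for Apob and 155 for Mttp exceeded r = 0.99. Apobec1 held too few reads to be given such a pattern.

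The members sit in several places of the genome (GRCm38, GENCODE M21). Apob lies on chromosome 12 (7977648 to 8016835, plus strand), Mttp on chromosome 3 (138089854 to 138144968, minus strand), Apoa2 on chromosome 1 (171225054 to 171226379, plus strand), A1cf on chromosome 19 (31868764 to 31948995, plus strand) and Apobec1 on chromosome 6 (122577792 to 122602444, minus strand). Apoa1 (chromosome 9, 46228580 to 46230466, plus strand), Apoc3 (46232933 to 46235636, minus strand) and Apoa4 (46240696 to 46243459, plus strand) lie in a cluster that ends with Apoa5, and Apoc2 (chromosome 7, 19671579 to 19677941, minus strand) lies in a cluster with Apoc4, Apoc1 and Apoe. The cluster neighbours were in a list of 8 other apolipoprotein genes that holds no member. This list, too, was chosen with earlier results of these data known, so the p-values of its genes are given as a description. Apoe, the ligand of several lipoprotein receptors, had 1282 and 1137 CPM in mutant, 733 and 457 in heterozygous and 87.9 and 94.4 in wild-type libraries, a log2 rise of 3.73 (SE 0.24, adjusted p = 0.000646) in mutant and of 2.71 (SE 0.23, adjusted p = 0.00373) in heterozygous heads over wild type. Apoc1 rose by 5.69 (SE 0.31, adjusted p = 0.000482) in mutant and 4.10 (SE 0.30, adjusted p = 0.00251) in heterozygous heads over wild type. Apoa5, an activator of triglyceride clearance, rose by 4.77 (SE 0.45, adjusted p = 0.00189) in mutant and 3.69 (SE 0.45, adjusted p = 0.0106) in heterozygous heads. Apoc4, next to Apoc2 on the same strand, had 16 and 16 reads in mutant, 2 and 7 in heterozygous and 0 and 0 in wild-type libraries. It was at least 11.7-fold higher in mutant heads (adjusted p = 0.0166 in edgeR's quasi-likelihood test). In heterozygous heads it was at least 3.71-fold higher and did not pass (adjusted p = 0.114). Apoc4 passed the filter on low counts through its mutant reads alone, so nothing is read from its p-values.

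**Figure D3:**
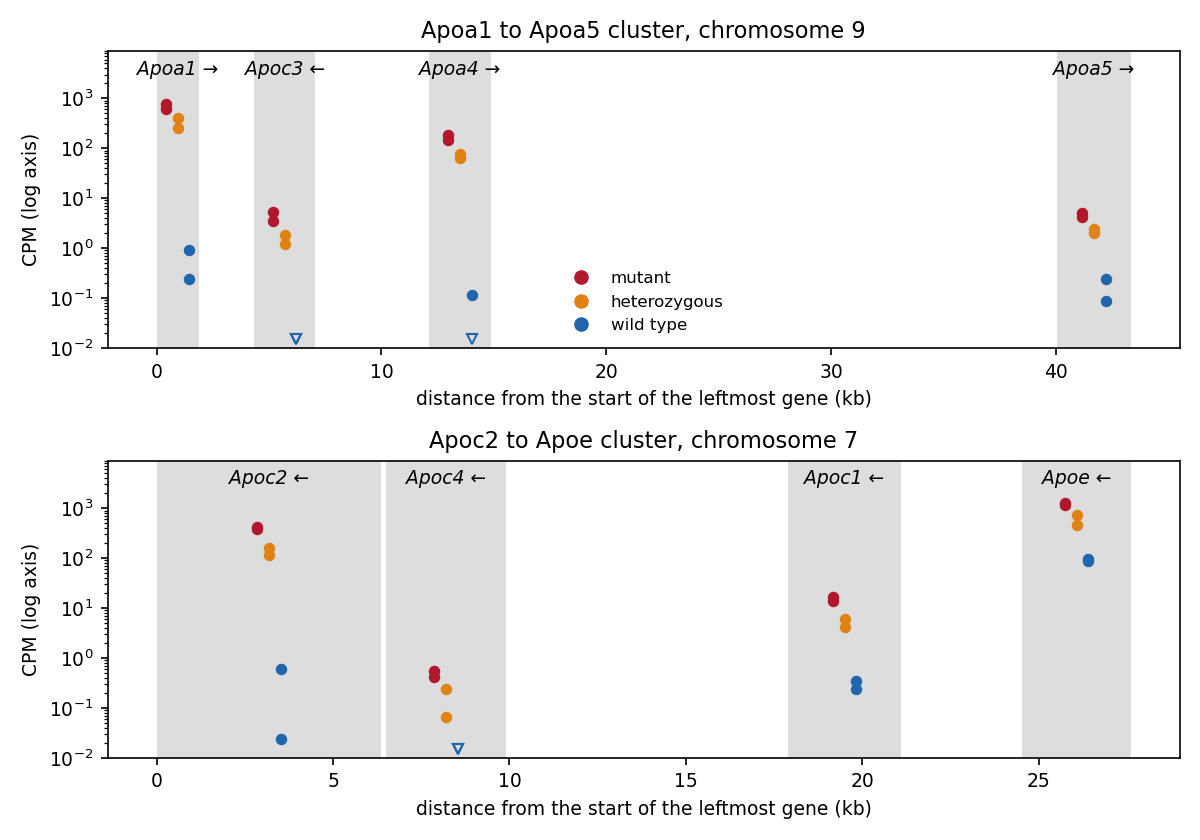
CPM of the genes of both apolipoprotein clusters, drawn at their distance along the chromosome in kb; grey bands are the genes, arrows their strand, points single libraries on a log axis, and open triangles a value of 0. In each of the 8 genes both mutant libraries stand above both heterozygous and both wild-type libraries, while Apoe keeps 87.9 and 94.4 CPM in wild type.

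Genes next to the members, apart from the apolipoprotein genes of these clusters, were counted as well. A rule added after the data had been seen took the 2 nearest fitted protein-coding genes on each side of every member, 32 genes in all. Of these, 4 rose and 5 fell in mutant against wild type, at a median of 0.10 log2 units, while 30.6% of all genes passed. Scaled to the neural progenitor list, 16 rose and 1 fell, at a median of 0.41, so their direction depends on the scaling. In place of 9, the number passing was 4 without mutant replicate 1, 5 without mutant replicate 2, 5 without wild-type replicate 1 and 6 without wild-type replicate 2. In heterozygous against wild type 3 rose and 0 fell, where 6.56% of all genes passed. The number passing was 0 without wild-type replicate 2 (4 at an unadjusted p under 0.05), 1 without either mutant replicate or heterozygous replicate 1, and 4 by DESeq2.

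RefSeq promoter windows on GRCm38, from 250 bases before to 50 after a start, were found for 9 of the 10 genes, in 10 windows since Apoa2 has 2. Both strands were searched for short forms of binding motifs of factors known to act on such genes in liver. A FOXA form (TGTTTNC) was in 5 of the 10 windows and in 20.5% of all 32851 windows, an HNF4 form (CAAAGTNCA) in 2 and in 1.41%, a GATA form (AGATAA) in 0 and in 11.2%, and a TATA form (TATAAA) in 3 and in 13.6%. A match is a run of letters and no evidence of binding. The windows below carry HNF4 or FOXA letters in capitals; they show that the HNF4 letters stand before Apoa4, which was at 0 to 184 CPM over the libraries, and before Apobec1, which had few reads in all of them.
Apoa4 promoter, chr9:46240594-46240893, plus strand: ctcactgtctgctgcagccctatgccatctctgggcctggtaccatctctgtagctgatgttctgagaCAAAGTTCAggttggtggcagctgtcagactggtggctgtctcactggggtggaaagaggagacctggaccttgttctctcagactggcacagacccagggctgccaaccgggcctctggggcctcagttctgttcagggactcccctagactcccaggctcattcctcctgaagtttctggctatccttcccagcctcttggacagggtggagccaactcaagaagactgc
Apobec1 promoter, chr6:122602395-122602694, minus strand: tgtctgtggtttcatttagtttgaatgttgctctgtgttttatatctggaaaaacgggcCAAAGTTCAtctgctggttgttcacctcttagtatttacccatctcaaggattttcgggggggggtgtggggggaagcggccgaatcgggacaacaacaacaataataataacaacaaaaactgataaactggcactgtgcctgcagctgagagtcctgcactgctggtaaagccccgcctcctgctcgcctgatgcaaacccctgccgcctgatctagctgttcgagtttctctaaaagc
Apob promoter, chr12:7977427-7977726, plus strand: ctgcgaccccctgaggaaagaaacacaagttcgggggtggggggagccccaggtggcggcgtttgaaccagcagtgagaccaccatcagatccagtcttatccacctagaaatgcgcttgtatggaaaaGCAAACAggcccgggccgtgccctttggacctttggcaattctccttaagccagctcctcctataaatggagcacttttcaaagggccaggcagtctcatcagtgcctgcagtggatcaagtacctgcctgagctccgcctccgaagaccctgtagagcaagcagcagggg
Apoa1 promoter, chr9:46228380-46228679, plus strand: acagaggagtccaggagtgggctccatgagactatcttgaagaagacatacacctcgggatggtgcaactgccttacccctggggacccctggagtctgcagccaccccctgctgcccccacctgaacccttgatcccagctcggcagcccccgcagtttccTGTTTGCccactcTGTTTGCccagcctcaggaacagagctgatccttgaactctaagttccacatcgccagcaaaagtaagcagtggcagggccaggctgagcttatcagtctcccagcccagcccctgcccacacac

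The FOXA letters begin 88 and 75 bases before the RefSeq start on which the Apoa1 window is set. That start lies downstream of the GENCODE start of Apoa1 given above. Of the factors themselves, in a list of 20 regulators of apolipoprotein genes, 8 rose and 2 fell in mutant and 7 rose and 0 fell in heterozygous against wild-type libraries, at a median of 0.85 and 1.07 log2 units. For all genes tested these shares were 17.1% and 13.6% in mutant, and 6.03% and 0.533% in heterozygous against wild-type libraries. The regulator list shares Hnf4a with the visceral endoderm markers. Hnf4a, a nuclear receptor of liver and yolk sac endoderm, had 98.8 and 79.0 CPM in mutant, 61.8 and 45.3 in heterozygous and 0.218 and 0.284 in wild-type libraries (log2 fold change 8.46, SE 0.29, adjusted p = 0.000247 in mutant against wild type). Foxa3 rose by 4.55 (SE 0.30, adjusted p = 0.000664), Gata4 by 4.79 (SE 0.56, adjusted p = 0.00358) and Gata6 by 3.43 (SE 0.39, adjusted p = 0.00329) in the same comparison. Gata4 and Gata6 are also genes of the heart, and Gata4 had 165 and 115 CPM in mutant and 7.94 and 2.02 in wild-type libraries. In heterozygous against wild-type libraries each of these passed as well, at log2 fold changes of 7.73 for Hnf4a, 3.64 for Foxa3, 4.37 for Gata4 and 2.93 for Gata6. Foxa1, Foxa2, Nr2f1 and Nr2f2 did not pass there. In mutant against wild type the 2 that fell were Nr2f1, at -2.48 log2 units (SE 0.50, adjusted p = 0.0170), and Nr2f2, at -1.395 (SE 0.37, adjusted p = 0.0375). Foxa2 rose there by 0.53 (SE 0.13, adjusted p = 0.0298) in edgeR's quasi-likelihood test, and Foxa1 did not pass.

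Over the 76 related genes of 5 lists, which hold no member but were chosen with earlier results of these data known, 72 were tested. In mutant against wild-type libraries 32 rose and 8 fell, at a median of 0.56 log2 units beside -0.02 over all genes tested. In heterozygous against wild-type libraries 24 rose and 0 fell, and without heterozygous replicate 1 that number was 12. The visceral endoderm sums given above moved with both comparisons. In mutant against heterozygous libraries 0 of 72 passed edgeR's quasi-likelihood test, with 25 at an unadjusted p under 0.05; DESeq2 passed 16, the likelihood ratio test 12, and the quasi-likelihood test without heterozygous replicate 1 passed 2.

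Of the 8 other apolipoprotein genes 6 were tested. In mutant against wild-type libraries 5 rose and 1, Apod, fell, where 17.1% of all genes tested rose and 13.6% fell. The 5 include Apoc4, from whose p-values nothing is read. The median log2 fold change of the 6 was 4.25, and 3.64 with Apoc4 at its bound. Besides the cluster genes, Clu rose by 0.96 (SE 0.13, adjusted p = 0.00487), and Apod, a lipocalin of glia and mesenchyme, fell by 2.64 on the log2 scale (SE 0.48, adjusted p = 0.0123). Of the same 6 genes in heterozygous against wild-type libraries 3 rose and 0 fell, with a median of 3.20, and 2.30 with Apoc4 at its bound. There 6.03% of all genes tested rose and 0.533% fell.

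Genes of particle assembly were divided between a few of very large and many of small difference. Of 14, 9 rose and 0 fell in mutant and 7 rose and 0 fell in heterozygous against wild-type libraries, at a median of 0.60 and 0.39 log2 units. Among all genes tested 17.1% rose and 13.6% fell in mutant, and 6.03% rose and 0.533% fell in heterozygous libraries. Soat2 had 67.7 and 59.5 CPM in mutant, 34.3 and 23.6 in heterozygous and 0.387 and 0.569 in wild-type libraries (7.06, SE 0.28, adjusted p = 0.000251). Pla2g12b, needed for lipoprotein secretion from mouse liver, rose by 6.81 (SE 0.39, adjusted p = 0.000516) in mutant against wild type. Cideb, a lipid droplet protein of hepatocytes, and Mia2, a cargo receptor of endoplasmic reticulum exit sites, had 1 and 2 reads in the wild-type group; pooled over the group they stood 563.7 times (exact 95% counting interval 100.7 to 22310) and 184.8 times (50.8 to 1532) higher in mutant. The triglyceride synthase gene Dgat2 rose by 1.53 (SE 0.13, adjusted p = 0.00125). P4hb, the disulfide isomerase that pairs with Mttp in the transfer complex and serves all secretory cells, had 1052 and 1006 CPM in mutant, 913 and 887 in heterozygous and 779 and 866 in wild-type libraries (0.32 in mutant against wild type, adjusted p = 0.0172).

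Among 10 genes of Apob editing and of the Apobec family, 9 were tested, of which 3 rose and 2 fell in mutant and 3 rose and 0 fell in heterozygous against wild-type libraries. The medians, -0.03 and 0.05, lay near those of all genes. In all genes tested the shares were 17.1% higher and 13.6% lower in mutant, and 6.03% and 0.533% in heterozygous against wild type. Rbm47, an RNA-binding cofactor that can serve with Apobec1 in mice, had 33.0 and 29.0 CPM in mutant, 19.1 and 17.7 in heterozygous and 3.17 and 5.09 in wild-type libraries (log2 rise of 2.91, SE 0.23, adjusted p = 0.00107, in mutant and 2.16, SE 0.22, adjusted p = 0.00684, in heterozygous heads). The chaperone gene Dnajb11 rose by 0.74 (SE 0.09, adjusted p = 0.00402) and Apobec2, a family member of muscle, by 1.83 (SE 0.49, adjusted p = 0.0379) in mutant against wild type. Celf2 fell by 1.46 on the log2 scale (SE 0.22, adjusted p = 0.00679) and Syncrip by 0.27 (SE 0.04, adjusted p = 0.00919), and scaled to the neural progenitor list Syncrip stood at 0.04 (adjusted p = 0.565).

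Of 24 receptors, lipases and lipid transfer genes, 23 were tested; 7 rose and 3 fell in mutant and 4 rose and 0 fell in heterozygous against wild-type libraries, at a median of 0.06 and 0.03 log2 units. Beside these stand 17.1% higher and 13.6% lower of all genes tested in mutant, and 6.03% and 0.533% in heterozygous against wild type. Cubn and, in the regulator list, Hnf4a are also among the visceral endoderm markers. Cubn, an endocytic receptor of yolk sac and kidney that binds Apoa1, had 949 and 766 CPM in mutant, 661 and 458 in heterozygous and 0.992 and 1.93 in wild-type libraries (9.22, SE 0.36, adjusted p = 0.000251). Lrpap1, the chaperone of the lipoprotein receptor family, rose by 1.64 (SE 0.15, adjusted p = 0.00165), the lysosomal lipase gene Lipa by 1.16 (SE 0.09, adjusted p = 0.00105) and the high density lipoprotein receptor gene Scarb1 by 1.24 (SE 0.15, adjusted p = 0.00424) in mutant against wild type. Lpl, the lipase that Apoc2 activates, had 14.8 and 16.3 CPM in mutant, 25.6 and 24.4 in heterozygous and 26.0 and 25.2 in wild-type libraries. It fell by 0.72 on the log2 scale (SE 0.09, adjusted p = 0.00382) in mutant against wild type, while in heterozygous against wild type it was at -0.03 (SE 0.09, adjusted p = 0.848).

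**Figure D4:**
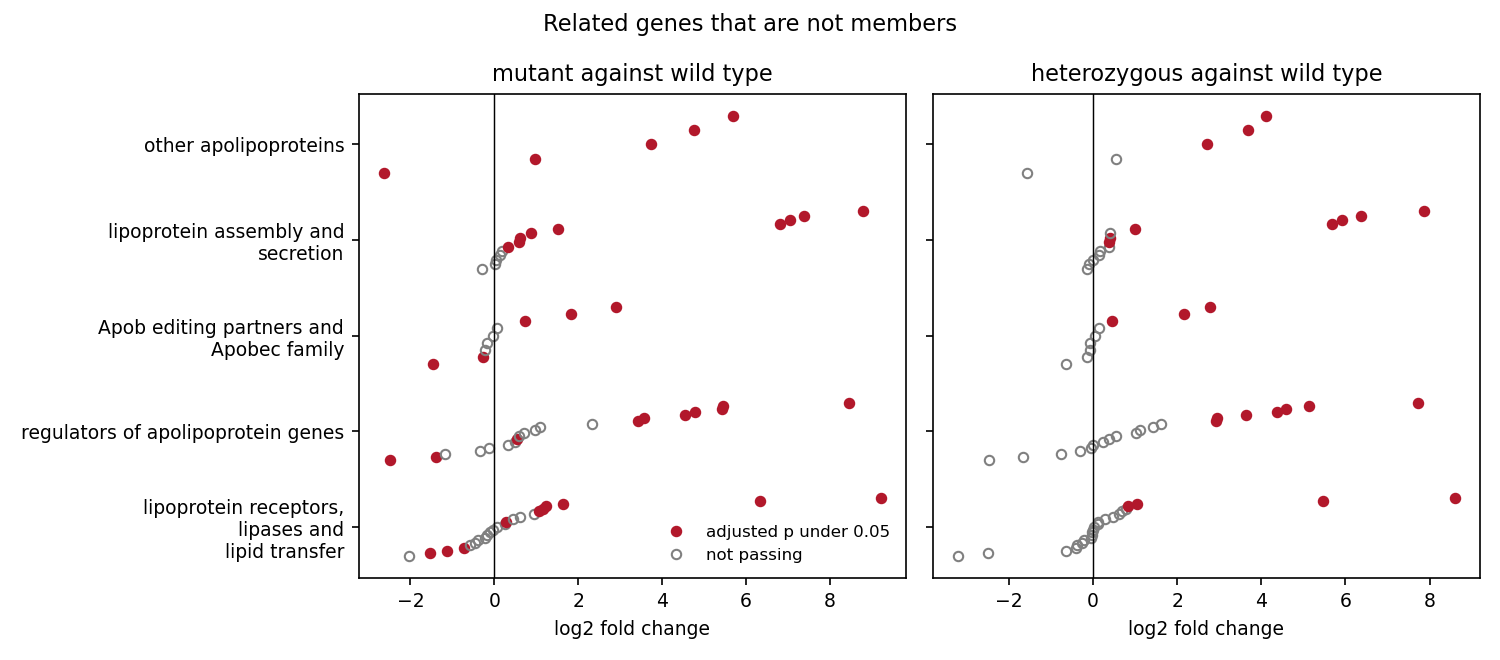
Log2 fold change of each tested gene of the 5 related lists in mutant (left) and heterozygous (right) against wild-type libraries; filled points passed at an adjusted p under 0.05, and Apoc4, at 0 in wild type, is not drawn. In mutant libraries 4 of the lists hold genes near 0 beside a few far to the right, up to 9.22 for Cubn in mutant and 8.60 in heterozygous libraries.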

How the data were processed

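The members and the gene lists were chosen with earlier results of these data known. Per the submitters' processing notes, reads were handled with Trim Galore 0.4.0, TopHat2 2.0.11, HTSeq 0.6.1p2 and edgeR 3.8.6 on mm10; annotation and strand setting: not given in the sources used here. Overlapping genes may therefore share reads. Raw counts by gene were deposited for every library; their 5 summary lines were left out, and the authors deposited a table with 1 column of values per library. Its header names no unit; the deposited values were read as RPKM because, within a gene, they follow its counts over the library size. That table also holds the authors' log2 fold changes, likelihood ratio scores and p-values, which are not used here.

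Counts were fitted with edgeR 4.0.16 in R 4.3.3 (quasi-likelihood F-test, TMM, filterByExpr, all 6 libraries in 1 fit, 3 residual degrees of freedom, Benjamini-Hochberg over 15187 genes, threshold 0.05). SE was taken as the absolute log2 fold change over the root of the F statistic. CPM of genes uses TMM library sizes, sums over lists and pooled ratios use library totals. The fit was tested on simulated counts of 15187 genes: in mutant against wild type it recovered 71% of genes changed 2-fold and 97% of those changed 4-fold, with 14 false among 182 calls. The simulation raised a small set of well-counted genes in mutant and left the rest unchanged. It does not cover genes near 0 in wild type or changes of many genes in both directions. Named related genes are the 5 with the smallest p that passed in each list, and the cluster genes. P4hb, Bag6, Alb, Serpina1a, Hhex, Prox1, Foxa1, Foxa2, Nr2f1 and Nr2f2 were added after their values were seen. A few genes that these rules name are not reported here. Count files were assigned by title as the series' file names give them, at a tolerance of 0.1% in the ratio of counts to RPKM. DESeq2 1.42.0, other scalings, no filter, the 2 groups alone and left-out libraries were tried. The marker lists are given by their sums and counts, with only some of their genes named. The neural progenitor list used for scaling holds 16 genes, which are not named here.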

Additional observations from a re-analysis of the deposited data

How the results depend on the processing

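No paired analysis was possible because the labels give no replicate numbers that the genotypes share. With the count files as attached, 0 genes passed in each of the 3 comparisons (318, 48 and 422 at an unadjusted p under 0.05), and 0 related genes in mutant and in heterozygous against wild type. For Apoc3 and A1cf, the values against wild type that follow are log2 ratios of reads pooled over a group at library totals. All others come from the fit. In mutant against wild type the log2 fold changes with the files as attached were -0.31 for Apoa1, -0.75 for Apoa2, -0.32 for Apoa4, -0.31 for Apob, -0.16 for Apoc2, -0.64 for Apoc3, -0.18 for Apom, -0.10 for Mttp and -0.69 for A1cf. In heterozygous against wild type they were -0.23 for Apoa1, -0.38 for Apoa4, -0.18 for Apob, -0.63 for Apoc2, -0.70 for Apoc3 and -0.21 for Apom. In mutant against heterozygous they were -0.074 for Apoa1, -1.28 for Apoa2, -0.13 for Apob, -0.14 for Mttp and -0.63 for A1cf. Those 20 values and that of Apoa2 in mutant against heterozygous without mutant replicate 1 (-0.38, and 0.39 without replicate 2) are the 21 of 348 recomputed member values that changed sign; 292 moved by less than the spread between replicates and 35 by more. Where leaving out a wild-type library left a gene at 0 there, no value was computed.

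Scaled to the neural progenitor list, which moved the median of all genes by 0.31 in mutant and 0.12 in heterozygous against wild type and by 0.19 in mutant against heterozygous, 7142 genes passed in mutant against wild type (6458 higher, 684 lower, in place of 2594 and 2060) and 1668 genes, 19 of them related genes, in mutant against heterozygous (1532 higher and 136 lower in place of 11 and 55). DESeq2 passed 1890 genes in heterozygous against wild type (1416 higher, 474 lower, in place of 916 and 81) and 1313 in mutant against heterozygous (699 higher, 614 lower), the likelihood ratio test 1579 and 801 (375 higher and 426 lower in mutant against heterozygous); in mutant against heterozygous DESeq2 passed 16 related genes and the likelihood ratio test 12. Without a filter 182 genes and 3 related genes passed in mutant against heterozygous, and with only those 2 groups fitted 106. The causes were not tested. On leaving out single libraries, 1997 (without mutant replicate 1) to 4265 genes passed in mutant against wild type, 313 (without heterozygous replicate 1) to 748 in heterozygous against wild type and 11 (without heterozygous replicate 2) to 81 in mutant against heterozygous; related genes numbered 29 to 40, 12 to 23 and 0 to 2. With 2 libraries a genotype and under 35 reads in the wild-type libraries for several members, wild-type folds are the least precise values.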
